A study of Mus musculus with 14 samples.

Results

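The subject is the response to TGFβ of the line labelled Vector, the empty-vector line among 7 stable lines of αTN4-1. αTN4-1 is an epithelial cell line from the lens of transgenic mice that express the SV40 T antigen under a lens promoter. It comprises 2 of the 14 libraries of the series: 1 from cells given 20 ng/mL TGFβ for 24 h in DMEM without serum, and 1 labelled control. Both came from cells of genotype WT, grown in DMEM with serum under neomycin selection. Whether serum was withheld from the control cells over those 24 h is not given, so TGFβ and serum withdrawal cannot be told apart. The other 6 lines are named after the CREB construct they carry. They are the lines labelled WT-CREB, R314A-CREB, S133A-CREB and S133A/R314A-CREB, together with KCREB and S133A-KCREB, and each likewise gave 1 TGFβ and 1 control library. They serve here only as background for how general each change was. With 1 library per side there is no test within Vector. Its differences are therefore given as values, and "rose" and "fell" are kept for genes that passed a test in the other 6 lines.

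TGFβ binds a pair of serine/threonine kinase receptors, which phosphorylate SMAD2 and SMAD3. These join SMAD4 and enter the nucleus, where they activate genes for matrix proteins, protease inhibitors and inhibitors of the pathway itself. In the lens, TGFβ is known to turn epithelial cells into matrix-producing, contractile cells, as seen in anterior subcapsular cataract and in opacification of the capsule after cataract surgery.

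Expression is given as TPM (transcripts per 1000000) as deposited, summed over the rows of a gene. Differences are TGFβ minus control in log2(TPM + 1), a scale on which low genes change less than their ratio. The 2 Vector libraries were alike in composition: 12768 genes reached 1 TPM in the TGFβ library and 12730 in the control library. Mitochondrially encoded genes took 6.48% of TPM in the TGFβ library and 6.78% in the control library, against 5.59% to 10.8% over all 14 libraries. Coverage per unit of FPKM (fragments per kilobase of transcript, scaled to library size), a proxy for depth, was 6.01 in the TGFβ library and 6.65 in the control library. Creb1, the gene whose product the other lines were made to express, stood at 23.1 TPM with TGFβ and 20.8 TPM in control cells of Vector. It was higher in both libraries of the lines labelled KCREB and S133A-KCREB and lower in both libraries of the other 4 lines, which goes against the labels of those 4 if their construct is counted as mouse Creb1. For this reason lines are named below as labelled.

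The cells carried lens transcripts. Pax6, the master regulator of eye development, had 123 TPM with TGFβ and 166 TPM in control cells, and the small heat shock protein crystallin Cryab had 505 and 1674 TPM. The marker genes Foxe3 and Pitx3 were listed at 0 in both libraries, and Cdh1 (E-cadherin) and Col4a1 had under 0.1 TPM in both. The label of lens epithelial cells thus holds for 11 of its 15 marker genes, those that averaged at least 5 TPM. Among these Cryaa was low, with 6.17 TPM with TGFβ and 4.08 TPM in control cells. RNA was taken from whole cultures, so fewer cells of a type and less RNA per cell cannot be told apart in any value below.

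Of 40853 gene identifiers, 10470 averaged at least 5 TPM over the 2 Vector libraries and were kept. Just inside that limit was Tmem117, with a mean of 5.002 TPM, and just outside was Zfp518a, with 4.9997 TPM. With TGFβ, 217 genes (2.07%) were at least 2-fold higher than in control cells and 306 (2.92%) at least 2-fold lower, which are differences of 1 or more in log2(TPM + 1). Past 4-fold, 46 genes were higher and 65 lower. Most genes moved little: 81.8% lay within 0.5 of no difference, the median over the kept genes was 0.03, and by sign alone 5581 were higher and 4889 lower. For 60 of the 217 higher genes the control value was under 5 TPM, and for 76 of the 306 lower genes the TGFβ value was, so these passed the limit only through the library in which they were high.

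**Figure D1:**
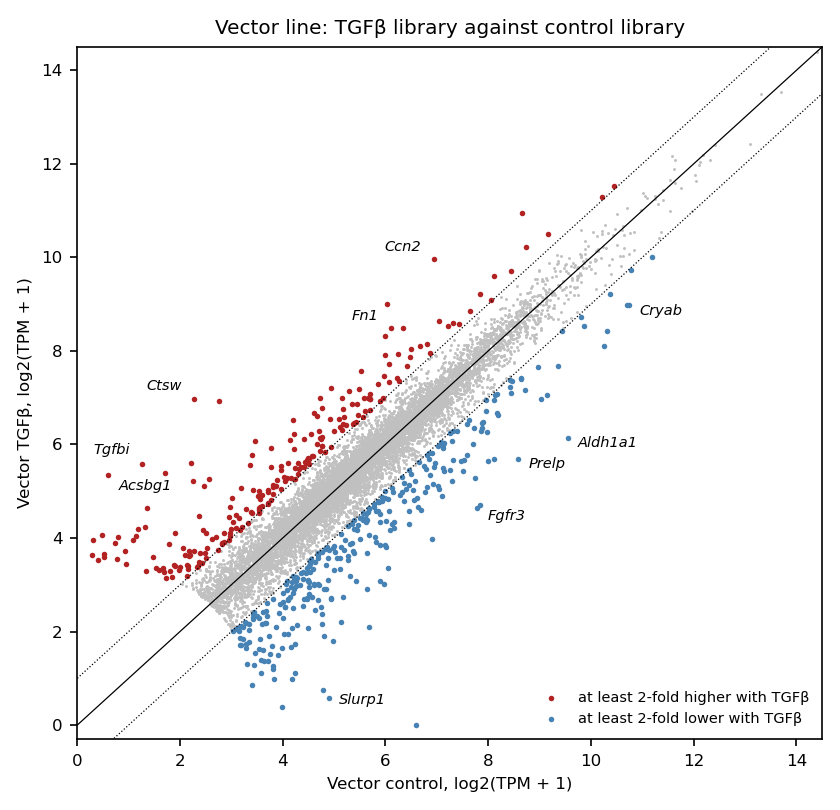
Expression of the 10470 kept genes in the Vector TGFβ library (vertical axis) and the Vector control library (horizontal axis), both in log2(TPM + 1). The solid line marks equal values and the dotted lines a 2-fold difference; the 217 red genes lie above the upper dotted line and the 306 blue genes below the lower one, with Ctsw, Ccn2 and Fn1 far above the line and Aldh1a1 and Slurp1 far below it.

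Among the 15 genes with the highest differences, Acsbg1, an acyl-CoA synthetase of very long chain fatty acids (chromosome 9, 54512163 to 54569169, GRCm39), had the largest difference, with 39.7 TPM in TGFβ-treated and 0.522 TPM in control cells (4.74). Ctsw, which encodes cathepsin W, a cysteine protease (chromosome 19, 5515071 to 5518558), had 125 TPM with TGFβ and 3.86 TPM in control cells (4.70). In the other 6 lines both genes rose, Acsbg1 by 2.75 ± 0.32 (mean difference ± SE, adjusted p = 0.000918) and Ctsw by 3.22 ± 0.33 (adjusted p = 0.000694; limma on the 6 differences, Benjamini-Hochberg over 10470 genes). The mast cell tryptase gene Tpsab1 had 120.3 TPM with TGFβ and 5.81 TPM in control cells, and the serine protease gene Prss46 had 15.7 and 0.399 TPM. Mmp9, the gelatinase that cuts basement membrane collagen, had 47.9 TPM with TGFβ and 3.62 TPM in control cells (3.40).

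Also among these 15, Tgfbi, a secreted adhesion protein first found as a TGFβ-induced gene, had 47.0 TPM with TGFβ and 1.40 TPM in control cells (4.32). Col1a1, the main chain of type I collagen, had 23.8 and 1.56 TPM (3.28). Ccn2, the connective tissue growth factor (chromosome 10, 24471340 to 24474581), was the most abundant of the 15, with 998 TPM with TGFβ and 121 TPM in control cells (3.03). Cdh15, the cadherin of muscle precursors, had 11.1 and 0.428 TPM (3.08). The remaining genes had under 16 TPM with TGFβ and under 1 TPM in control cells: the secreted chaperone Clu (3.65), Tmem119 (3.34), Frmpd1 (3.23), the UDP-sugar receptor P2ry14 (3.15), the pro-apoptotic BH3-only gene Bmf (3.12) and the bile acid receptor Gpbar1 (3.11). All 15 rose in the other 6 lines, where 22.4% of all kept genes rose, and all 15 had the same sign in every one of those lines. Adjusted p-values in limma ran from 0.000196 for Prss46 to 0.0173 for Gpbar1. In those lines Gpbar1 was low, with 0.775 to 4.69 TPM with TGFβ and 0.212 to 0.803 TPM in control cells.

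Among the 15 genes with the lowest differences, Aldh1a1, an aldehyde dehydrogenase that forms retinoic acid (chromosome 19, 20469947 to 20620827), was the most abundant in both libraries, with 69.0 TPM in TGFβ-treated and 749 TPM in control cells (-3.42). Prelp, a small leucine-rich proteoglycan, had 50.4 TPM with TGFβ and 381 TPM in control cells (-2.89), and the fibulin gene Efemp1 had 25.02 and 229.8 TPM (-3.15). Fgfr3, a receptor for the fibroblast growth factors that drive lens fiber differentiation, had 24.0 TPM with TGFβ and 219.7 TPM in control cells (-3.14). The difference of Slurp1, a secreted Ly6 protein of surface epithelia, was the lowest of the 15 (-4.32), with 0.491 TPM with TGFβ and 28.8 TPM in control cells.

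Several others of the 15 had nearly no transcript left in the TGFβ library. The folate receptor gene Folr1 had 0.692 TPM with TGFβ and 26.4 TPM in control cells (-4.02), and the uroplakin gene Upk3b had 0.303 and 14.8 TPM (-3.60). Ecrg4, a secreted peptide precursor, had 3.28 TPM with TGFβ and 50.5 TPM in control cells (-3.59). Between -3.18 and -2.83 lay the FOXO target Depp1, the cornified envelope gene Scel, the actin nucleator Cobl, the glutathione transferase genes Gstm7 and Gsta2, the basement membrane linker Nid2 and the aminopeptidase Xpnpep2. All 15 fell in the other 6 lines, where 19.6% of all kept genes fell. Adjusted p-values in limma ran from 0.000246 for Aldh1a1 to 0.0368 for Upk3b. Some of these falls started from low levels in the other control libraries. These were 0.487 to 2.14 TPM for Depp1, 0.748 to 5.20 TPM for Folr1 and 0.237 to 8.29 TPM for Upk3b. In 3 of the 15 a line had the opposite sign: Fgfr3 and Cobl in the line labelled WT-CREB (0.11 and 0.02) and Gsta2 in the line labelled S133A-CREB (0.21). Glutathione transferases and aldehyde dehydrogenases share sequence among copies, so the split of reads between copies of Gsta2, Gstm7 and Aldh1a1 is uncertain.

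**Figure D2:**
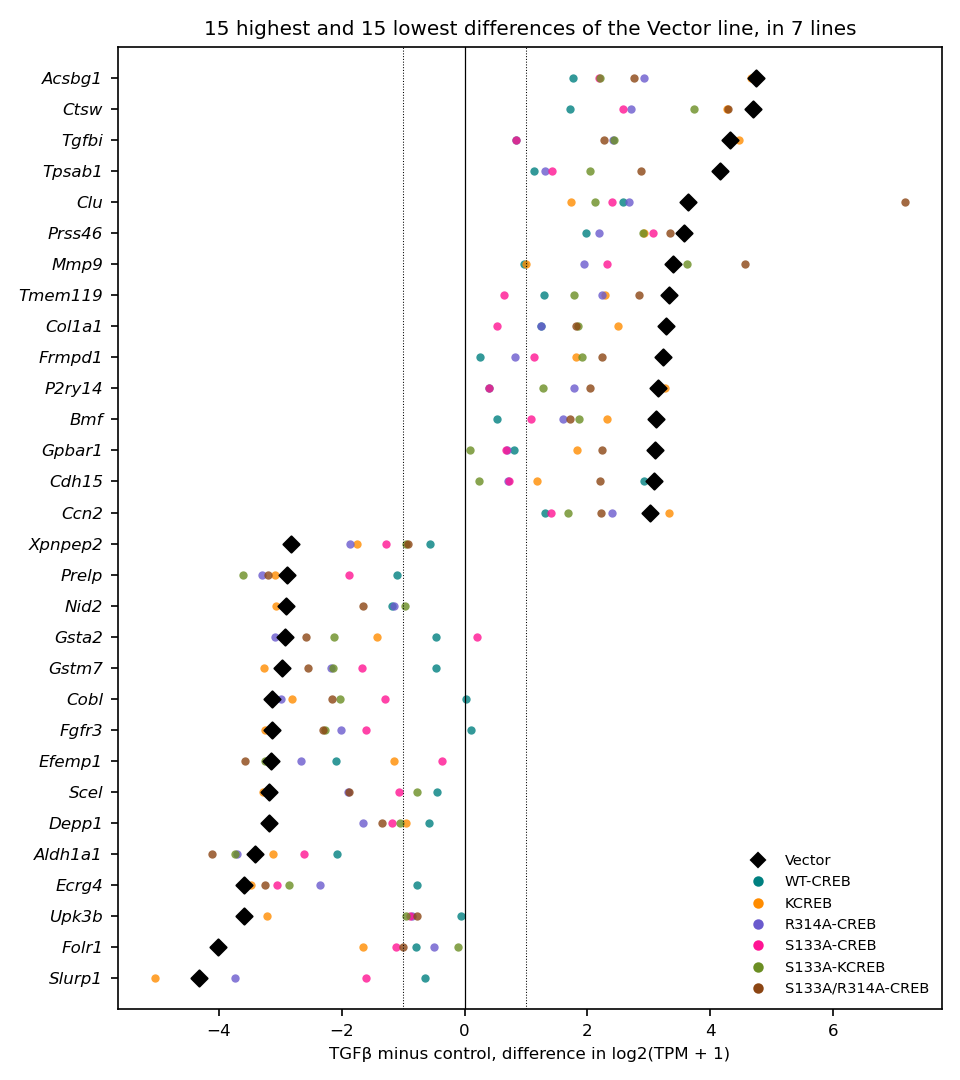
TGFβ minus control difference in log2(TPM + 1) (horizontal axis) of the 15 genes highest and the 15 lowest in Vector, in Vector (black diamonds) and in each of the other 6 lines (coloured points); dotted lines mark 2-fold. The Vector value lies outside the range of the other lines for 9 of the 15 higher and 6 of the 15 lower genes; the genes were chosen on Vector.

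The other lines shared most of this response. In them, 2346 of the 10470 genes rose (22.4%) and 2050 fell (19.6%, limma, adjusted p under 0.05). These shares belong beside each count below of list members that rose or fell in the other lines. Of the 217 genes higher in Vector, 180 rose in the other lines (82.9%) and none fell, and of the 306 lower genes 267 fell (87.3%) and none rose. These libraries share none with Vector, but the genes were kept by their Vector levels, and some were low in the other lines. In all 6 other lines 163 of the 217 and 244 of the 306 had the sign they had in Vector, but few were past 2-fold everywhere: 13 higher and 24 lower genes were past 2-fold in all 6, and 26 and 27 in none of them.

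Among the same 10470 genes, which the Vector libraries limit to those averaging 5 TPM, 75 had a mean difference of at least 1 and passed there, and 72 of them were at least 2-fold higher in Vector. Likewise 153 genes had a mean of -1 or less and passed, and 135 of them were at least 2-fold lower in Vector. The median of the 75 was 2.15 in Vector and between 0.85 in the line labelled WT-CREB and 1.84 in the line labelled KCREB among the others. The median of the 153 was -1.73 in Vector and between -1.75 in the line labelled KCREB and -0.71 in the line labelled WT-CREB. By counts past 2-fold, Vector came after the line labelled KCREB, with 298 higher and 392 lower, and before the other 5 lines. Genes were kept by the Vector libraries alone, which can favour Vector in this rank and in the medians above. The line labelled WT-CREB had the fewest, 47 higher and 70 lower. Across the 10470 genes the difference of Vector correlated with that of the line labelled KCREB at r = 0.842 and with that of the line labelled WT-CREB at r = 0.599. The other 4 lines lay between them, and the mean of the 6 gave r = 0.863. Genes are not independent replicates, so no p-value is given.

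**Figure D3:**
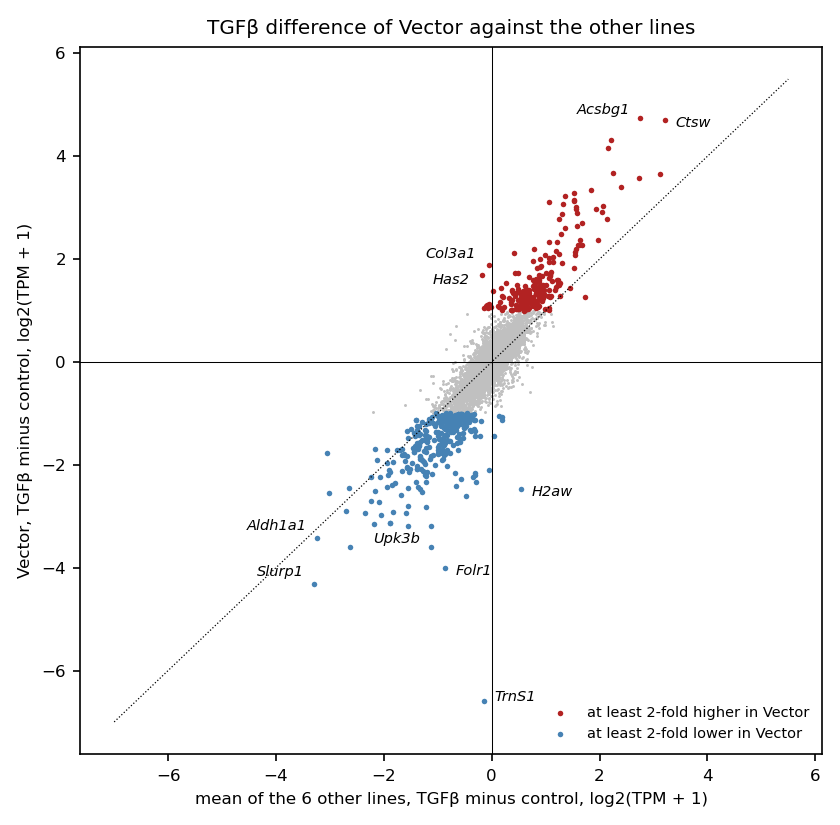
TGFβ minus control difference in Vector (vertical axis) against the mean difference of the other 6 lines (horizontal axis), both in log2(TPM + 1), for 10470 genes; red and blue mark genes past 2-fold in Vector and the dotted line equal differences. The coloured genes were chosen on Vector, so their distance from 0 there is set by that choice; Col3a1 and Has2 (high) and TrnS1 (low) lie near a mean of 0 in the others, and H2aw is low in Vector beside a mean of 0.54.

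Among the TGFβ ligands, all 3 genes were higher in the TGFβ library. Tgfb1 had 160.3 TPM with TGFβ and 66.4 TPM in control cells (1.26), Tgfb2 had 47.8 and 24.7 TPM (0.93) and Tgfb3 had 67.9 and 40.4 TPM (0.74). All 3 rose in the other lines, Tgfb2 by 0.82 ± 0.07 (adjusted p = 0.000520 in limma). Thbs1, which can activate latent TGFβ, had 782 TPM with TGFβ and 276 TPM in control cells (1.499), but its differences ran from -0.42 to 2.81 in the other lines and it did not pass there (adjusted p = 0.0989). The latent TGFβ binding protein Ltbp3, which holds the ligand in the matrix, had 129 and 169 TPM. Of 4 kept receptor and coreceptor genes, 3 were lower with TGFβ and 1 was higher. Tgfbr1 had 52.2 TPM with TGFβ and 52.99 TPM in control cells, Tgfbr2 had 33.3 and 42.7 TPM (-0.35), and the coreceptor Tgfbr3 had 4.05 and 11.99 TPM (-1.36). The coreceptor Cd109, which inhibits TGFβ signalling, had 96.5 TPM with TGFβ and 69.2 TPM in control cells (0.47). In the other lines Tgfbr2 and Tgfbr3 fell (adjusted p = 0.0119 and 0.00379 in limma) and Cd109 rose (adjusted p = 0.0122).

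Of 11 kept SMAD and cofactor genes, 8 were higher with TGFβ and 3 lower, and 1 was at least 2-fold higher, the corepressor Skil, which the inhibitor list also holds. In the other lines 6 of the 11 rose and 1, Smad3, fell. Smad2 had 25.8 TPM with TGFβ and 27.3 TPM in control cells, the shared partner Smad4 had 40.2 and 37.0 TPM, and Smad3 had 69.9 and 93.0 TPM (-0.41). The feedback inhibitors had larger differences: of 12 listed, 11 were kept, 9 were higher, 5 of these at least 2-fold higher and none 2-fold lower, beside 2.07% and 2.92% of all kept genes. Pmepa1, which sequesters receptor-activated SMADs, had 512 TPM with TGFβ and 64.0 TPM in control cells (2.98). Skil had 76.6 and 25.1 TPM (1.57), the inhibitory SMAD gene Smad7 had 31.7 and 12.1 TPM (1.32), and the receptor-degrading adaptor Spsb1 had 45.0 and 12.7 TPM (1.75). All 4 rose in the other lines, where 8 of the 11 rose and none fell. The inhibitory SMAD gene Smad6 had 13.6 TPM with TGFβ and 16.2 TPM in control cells (-0.24), and the ubiquitin ligase gene Smurf1 had 46.3 and 52.3 TPM (-0.17). The list median was 0.99 in Vector and 0.36 to 1.08 in the others. Bambi, a decoy receptor, was at 5.07 TPM with TGFβ and 4.88 TPM in control cells, just under the limit.

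**Figure D4:**
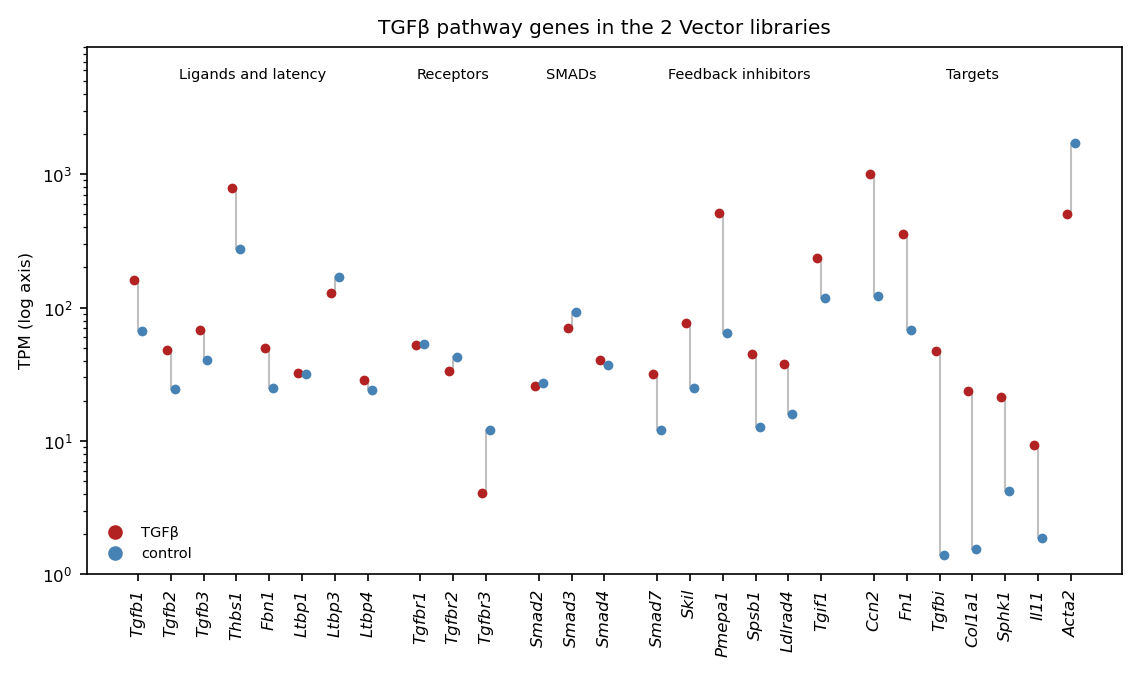
TPM on a log axis of TGFβ pathway genes in the 2 Vector libraries, TGFβ in red and control in blue, in order of role from ligands to targets. Smad2, Smad4 and Tgfbr1 have nearly equal values, the 6 feedback inhibitors drawn are higher with TGFβ, and Acta2 is the target shown that is lower. The 2 kept inhibitors that are lower, Smad6 and Smurf1, are not drawn.

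Of 31 listed SMAD targets, 25 were kept. Of these 16 were at least 2-fold higher and 2 at least 2-fold lower, beside 2.07% and 2.92% of all kept genes. The list median was 1.32, against 0.03 over all kept genes. In the other lines 17 of the 25 rose and 2 fell, and the median ran from 0.53 to 1.28. Fn1, fibronectin, had 359 TPM with TGFβ and 68.4 TPM in control cells (2.38), and the sphingosine kinase Sphk1 had 21.2 and 4.18 TPM (2.10). The cytokine Il11 had 9.25 TPM with TGFβ and 1.89 TPM in control cells (1.83). Under the 5 TPM limit, and so uncounted, Lif had 8.84 TPM with TGFβ and 0.338 TPM in control cells. Below 1.5 TPM in both libraries were the type I collagen chain Col1a2, the integrin chain Itgb3, the oxidase Nox4 and the crosslinking enzyme Lox.

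Fibrillar collagens and their modifying enzymes were mostly higher with TGFβ, 5 of 15 kept genes by at least 2-fold, beside 2.07% of all kept genes. Col27a1 had 8.82 TPM with TGFβ and 1.53 TPM in control cells (1.96), and the lysyl hydroxylase Plod2, which prepares collagen for crosslinks, had 1194 and 428 TPM (1.48). P4ha2, a collagen prolyl hydroxylase, had 106 and 51.0 TPM (1.04). Col3a1, the type III collagen chain, had 32.6 TPM with TGFβ and 8.07 TPM in control cells (1.89). The other lines differed in direction among themselves: their differences ran from -1.26 to 2.40 around a mean of -0.06 (adjusted p = 0.924 in limma). Has2, a hyaluronan synthase, likewise differed among them, with 9.28 and 2.20 TPM in Vector (1.68), a range of -1.70 to 2.08 in the others and adjusted p = 0.730 in limma. Ccn4, a matricellular protein of the family of Ccn2, had 397 and 131 TPM (1.59) and rose in the other lines. Osteopontin, Spp1, had 2510 TPM with TGFβ and 1196 TPM in control cells (1.07) and did not pass elsewhere (adjusted p = 0.830 in limma).

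The lens capsule is a thick basement membrane made by lens epithelium. Of its main collagen chains, Col4a1 had under 0.1 TPM and Col4a2 was listed at 0 in both libraries. Of 18 kept capsule genes 14 were lower with TGFβ, against 4889 of all 10470 kept genes. By at least 2-fold, 3 were lower and 1 was higher, beside 2.92% and 2.07% of all kept genes. The nidogens link laminin to collagen IV: Nid2 had 2.73 TPM with TGFβ and 27.1 TPM in control cells (-2.91), and Nid1 had 16.9 and 67.3 TPM (-1.93). Lama1 had 3.81 and 9.69 TPM (-1.15). Among the 4 higher genes only the laminin chain Lamb3 was past 2-fold, with 30.6 TPM with TGFβ and 12.1 TPM in control cells (1.27). Lamb3 rose in the other lines, where 3 of the 18 rose and 7 fell. The small proteoglycan Ogn had 5.54 and 29.7 TPM (-2.23), beside Prelp and Efemp1 above, whereas Fbln2 had 1439 TPM with TGFβ and 569.6 TPM in control cells (1.34).

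Among matrix proteases, Adamts4, an aggrecanase, had 33.5 TPM with TGFβ and 4.55 TPM in control cells (2.64). Their inhibitors diverged: Timp1 had 461 and 199 TPM (1.21), Timp3 had 13.1 and 34.4 TPM (-1.33) and Timp2 had 105 and 188 TPM (-0.83). In the other lines Timp1 rose and Timp2 and Timp3 fell. Serpinf1, the antiangiogenic serpin PEDF, had 46.3 and 9.26 TPM (2.20). Of the integrins, which anchor cells to this matrix, Itga2 had 24.3 TPM with TGFβ and 6.87 TPM in control cells (1.69). Itgb8, which activates latent TGFβ, had 6.54 and 27.0 TPM (-1.89), and Itga3 had 163 and 351 TPM (-1.10).

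Of 17 kept contractile genes that mark myofibroblasts, none was at least 2-fold higher with TGFβ and 3 were at least 2-fold lower. Over all kept genes these shares were 2.07% and 2.92%. Acta2, α-smooth muscle actin, had 503 TPM with TGFβ and 1714 TPM in control cells (-1.77), the tropomyosin Tpm1 had 1025 and 2350 TPM (-1.20), and the myosin light chain Myl9 had 171 and 399 TPM (-1.21). All 3 fell in the other lines, Acta2 by 0.95 ± 0.16 in log2 units (adjusted p = 0.00274 in limma). Tagln (SM22) had 118 and 193 TPM (-0.70), with other lines between -0.80 and 0.39. The intermediate filament gene Vim had 5465 TPM with TGFβ and 8788 TPM in control cells (-0.69). Actn1 and Pdlim7, of the actin-anchoring machinery, were higher, with 418 and 224 TPM (0.90) and 170.2 and 96.2 TPM (0.82), and both rose in the other lines, where 7 of the 17 rose and 7 fell. Targets of the serum response factor, a list that shares genes with this one, had a median of -0.05.

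Of the transcription factors that drive epithelial-mesenchymal transition, Sox4 stood out, with 188 TPM with TGFβ and 44.8 TPM in control cells (2.05). Snai2 had 22.5 and 13.6 TPM (0.68), Zeb1 and Zeb2 differed by 0.08 and 0.05, and Prrx1 had 52.3 and 95.9 TPM (-0.86). Sox4 and Snai2 rose and Prrx1 fell in the other lines. Of 14 kept junction genes 9 were below control, not far from the share of all kept genes (4889 of 10470), and Cdh13 (-1.21) was the only one past 2-fold. N-cadherin, Cdh2, the main cadherin of lens cells, had 155 TPM with TGFβ and 224 TPM in control cells (-0.53).

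Of 14 kept genes of the lens transcription factor list, which also holds the Notch ligand Jag1, 11 were below control, where 4889 of all 10470 kept genes were. Past 2-fold the list was even, with 2 lower and 2 higher, beside 2.92% and 2.07% of all kept genes. Prox1, needed for fiber differentiation, had 20.0 TPM with TGFβ and 48.8 TPM in control cells (-1.25), and Sox2, a partner of Pax6 in crystallin expression, had 85.8 and 191 TPM (-1.14). Tfap2a (-0.87), Hsf4 (-0.73) and Pax6 (-0.43) differed less. All 5 fell in the other lines, where 8 of the 14 fell and 3 rose. The 2 higher genes were the Notch ligand Jag1, with 276 TPM with TGFβ and 101 TPM in control cells (1.44), and the retinoic acid receptor Rarb, with 13.8 and 6.05 TPM (1.07), and both rose elsewhere. Of 25 listed crystallin and lens fiber genes 20 were under the 5 TPM limit, 12 of them listed at 0 in both libraries. Of the 5 kept 4 were lower with TGFβ and 1 was higher. Cryab had a difference of -1.73, and the fiber gene Lctl had 3.19 and 17.2 TPM (-2.12). The crystallin gene Cryaa went the other way, with 6.17 TPM with TGFβ and 4.08 TPM in control cells. The water channel Aqp1 had 425 TPM with TGFβ and 891 TPM in control cells (-1.07) and fell by 1.11 ± 0.10 in log2 units in the other lines (adjusted p = 0.000465 in limma).

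Of 14 kept retinoid and aldehyde dehydrogenase genes 9 were lower with TGFβ, 2 of them by at least 2-fold, and 1 was at least 2-fold higher, Rarb. Of all 10470 kept genes 4889 were lower, 2.92% were at least 2-fold lower and 2.07% at least 2-fold higher. Aldh1a7, next to Aldh1a1, had 9.19 TPM with TGFβ and 65.0 TPM in control cells (-2.70). Of 7 kept aldo-keto reductase genes 4 were lower and 3 higher, with a sum of 1246 TPM with TGFβ and 1118 TPM in control cells. Akr1c14 and Akr1c18 had 1.40 and 13.0 TPM (-2.55) and 30.8 and 107 TPM (-1.77). Akr1b3, aldose reductase, had 258 TPM with TGFβ and 152 TPM in control cells (0.76). Aldh1a7, Akr1c14 and Akr1c18 fell in the other lines. Of 29 kept genes of the NRF2, glutathione and pentose phosphate list, 26 were lower with TGFβ and 7 at least 2-fold lower, with a median of -0.46. Transketolase, Tkt, of the pentose phosphate pathway, had 343 TPM with TGFβ and 1278 TPM in control cells (-1.89), Nqo1 had 54.0 and 191 TPM (-1.81) and Gstm1 had 132 and 564 TPM (-2.09). In the other lines 11 of the 29 fell and 2 rose, and the list median ran from -0.61 to 0.12.

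The cholesterol synthesis genes were a list on which Vector lay near one end of the lines. Its median was -0.14 in Vector, against -0.82 to -0.12 in the others, where 21 of the 24 kept genes fell. In Vector 19 of the 24 were lower with TGFβ, against 4889 of all 10470 kept genes. None was past 2-fold, beside 2.07% higher and 2.92% lower of all kept genes. Mvk, mevalonate kinase, had 94.5 TPM with TGFβ and 180.5 TPM in control cells (-0.93), and Lss, lanosterol synthase, had 152 and 219.99 TPM (-0.53). Insig1, a sterol-regulated brake on the pathway, had 1661 TPM with TGFβ and 1237 TPM in control cells, a difference of 0.42, whereas it lay between -0.95 and -0.44 in every other line. The difference between Vector and the other lines was 1.10 ± 0.21 (SE) and did not pass over all genes (adjusted p = 1.00 in limma).

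Stress and biosynthesis genes were modestly higher. Of 28 kept ATF4 and amino acid response genes 22 were higher with TGFβ, 5 of them by at least 2-fold. In the other lines 19 rose and 1 fell. Of all 10470 kept genes 5581 were higher in Vector, and 2.07% were at least 2-fold higher. Ddit4, an inhibitor of mTORC1, had 141 TPM with TGFβ and 37.9 TPM in control cells (1.87), the stress factor Atf3 had 11.3 and 3.49 TPM (1.45), and the proline synthesis enzyme Pycr1 had 38.2 and 15.3 TPM (1.27). Nupr1 had 2949 TPM with TGFβ and 1396 TPM in control cells (1.08), with other lines between -0.59 and 1.29. Of 25 endoplasmic reticulum folding genes 23 were higher, none by 2-fold. The chaperone Hspa5 had 1543 TPM with TGFβ and 899.5 TPM in control cells (0.78) and the unfolded protein response factor Xbp1 had 241 and 124 TPM (0.96). Of 26 ribosome biogenesis genes 25 were higher, with a median of 0.41 and none past 2-fold. In the other lines 19 of the 25 folding genes and 21 of the 26 ribosome biogenesis genes rose and none fell.

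The IL-6 family list went in both directions. Of 11 kept genes 2 were at least 2-fold higher and 2 at least 2-fold lower, beside 2.07% and 2.92% of all kept genes. The ligand Il6 had 15.6 TPM with TGFβ and 1.21 TPM in control cells (2.91), beside Il11 (1.83). The receptor gene Il11ra1 had 40.6 and 89.0 TPM (-1.11) and the LIF receptor gene Lifr had 3.27 and 13.6 TPM (-1.77). Il6 and Il11 rose and Il11ra1 and Lifr fell in the other lines. Not all ligands were higher or receptors lower: the ligand gene Ctf1 had 7.50 TPM with TGFβ and 9.30 TPM in control cells (-0.28), and the oncostatin M receptor gene Osmr had 22.3 and 17.1 TPM (0.37). Cntf, a ligand of the same family that the list does not hold and the counts leave out, had 1.29 TPM with TGFβ and 12.9 TPM in control cells (-2.61). Of the NF-κB list, the adhesion receptor Vcam1 had 6.52 TPM with TGFβ and 48.6 TPM in control cells (-2.72) and Ptgs2, the inducible cyclooxygenase, had 108 and 34.9 TPM (1.60). Interferon-stimulated and MHC class I genes were lower in 24 of 30 cases, 6 by at least 2-fold, with a median of -0.41. Of all 10470 kept genes 4889 were lower, and 2.92% were at least 2-fold lower. The peptide transporter Tap2 had 9.16 TPM with TGFβ and 33.5 TPM in control cells (-1.76) and Gbp2 had 36.5 and 94.9 TPM (-1.35). The other lines were not uniform here: their medians ran from -0.76 to 0.48, and 9 of the 30 genes fell and none rose.

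Among immediate early genes, Klf10, a TGFβ-inducible repressor, had 20.8 TPM with TGFβ and 6.77 TPM in control cells (1.49), Junb had 369 and 148 TPM (1.31) and Jun had 86.3 and 40.0 TPM (1.09). All 3 rose elsewhere. Egr1 had 53.9 and 94.9 TPM (-0.80). Of 12 kept members of the CREB family none was past 2-fold, not far from the shares of all kept genes (2.07% higher and 2.92% lower). The family median was 0.03, against 0.03 over all kept genes. Its largest difference was that of Creb3l2, a secretory pathway factor, with 79.1 TPM with TGFβ and 41.2 TPM in control cells (0.92). Genes known to answer cAMP through CREB went in both directions, with a median of 0.02. Of 19 kept, 3 were at least 2-fold higher and 2 at least 2-fold lower, beside 2.07% and 2.92% of all kept genes. Scg2 had 8.67 TPM with TGFβ and 2.20 TPM in control cells (1.59), Nfil3 had 47.6 and 16.2 TPM (1.502), Gadd45a had 598 and 229 TPM (1.38), and the phosphodiesterase Pde4b had 2.03 and 11.3 TPM (-2.02). All 4 changed in the same direction in the other lines.

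Among other signalling genes, Sfrp1, a secreted Wnt antagonist, had 42.2 TPM with TGFβ and 181 TPM in control cells (-2.07), Wnt7a had 6.47 and 27.6 TPM (-1.94), and the Wnt effector Lef1 had 27.9 and 7.12 TPM (1.83). Pdgfa had 125 and 50.8 TPM (1.28). Irs1, the insulin receptor substrate, had 7.03 TPM with TGFβ and 25.03 TPM in control cells (-1.70), and Igfbp2 had 205 and 655 TPM (-1.67). The growth arrest genes Gas1 and Gas6 had 24.4 and 98.4 TPM (-1.97) and 27.9 and 96.7 TPM (-1.76). These 8 genes passed in the other lines in the same direction. Of 28 mitosis genes and 30 DNA replication genes none was past 2-fold, not far from the shares of all kept genes (2.07% higher and 2.92% lower). Their medians were -0.09 and 0.08, against 0.03 over all kept genes. The mitosis median lay below the range of the other lines (-0.01 to 0.12), and no gene-wise difference from them passed. The cyclin-dependent kinase inhibitor Cdkn2b, a known TGFβ target, had 382 TPM with TGFβ and 171 TPM in control cells (1.16), against -0.10 to 0.49 in the others. It was singled out after its values were seen.

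**Figure D5:**
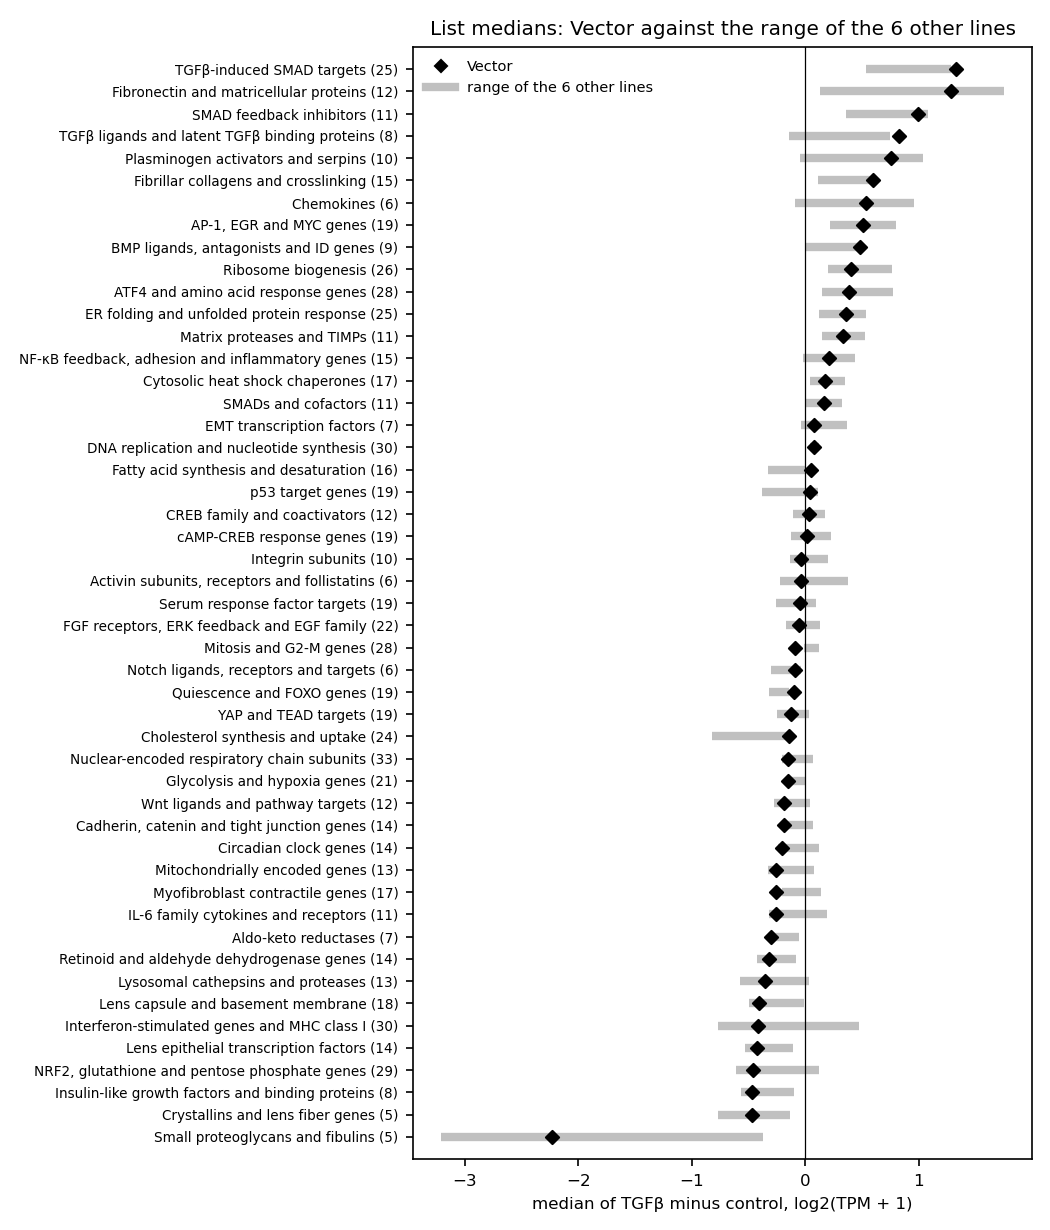
Median TGFβ minus control difference in log2(TPM + 1) of 49 gene lists with at least 5 kept members (number in parentheses), in Vector (black diamonds) and over the range of the other 6 lines (grey bars). SMAD targets are at the top with 1.32 and small proteoglycans and fibulins at the bottom with -2.23; for cholesterol synthesis Vector lies at the upper end of the range of the others.

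Promoter windows from RefSeq (GRCm38.p6, 250 bases before to 50 after each start) were searched on both strands for 5 motifs. Of the genes at least 2-fold higher, 159 had a window, of those at least 2-fold lower 238, and of all kept genes 8326. The cAMP response element TGACGTCA was in 2.52% of the higher, 1.26% of the lower and 3.77% of all kept genes with a window. The AP-1 site TGANTCA was in 10.7% of the higher and 10.5% of the lower genes, against 5.89% of all kept and 8.97% of all genes of the table. The amino acid response element TGATGCAA was in 3.14% of the higher, 0.420% of the lower and 0.613% of all kept genes, and in 6 of 24 genes of the ATF4 list. The sterol element TCACNCCAC was in 4.403%, 0.420% and 1.37%, and the palindromic SMAD element GTCTAGAC in none of the higher or lower genes and 0.264% of all kept. No motif contains another. A match is a description of letters and was not tested for use.

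The stretches below show the cAMP response element, that of CREB, in 3 of the 4 genes at least 2-fold higher that held it. Capitals mark the motif, and each is written 5′ to 3′ on the strand of its gene. The element was also in 3 genes at least 2-fold lower, Plekha4, Daam2 and Tspyl4, which are not shown. It was no more frequent in the higher genes (2.52%) or the lower genes (1.26%) than in all kept genes with a window (3.77%). These stretches therefore do not link the element to the direction of change. Lmcd1, a LIM domain protein of muscle, had 66.4 TPM with TGFβ and 10.0 TPM in control cells (2.61); Scg2 and Cdkn2b are described above.
Lmcd1 (chr6:112273603-112273660, plus strand): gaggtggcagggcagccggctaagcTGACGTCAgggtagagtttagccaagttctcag
Scg2 (chr1:79440062-79440119, minus strand): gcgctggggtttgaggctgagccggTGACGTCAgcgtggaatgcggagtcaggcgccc
Cdkn2b (chr4:89311046-89311103, minus strand): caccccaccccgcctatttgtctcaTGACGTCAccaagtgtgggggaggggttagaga

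The next 5 show the amino acid response element, in capitals and in either orientation, in genes of the ATF4 list. Atf3, Pycr1 and Nupr1 were past 2-fold, while Chac1, a glutathione-degrading enzyme, had 129 TPM with TGFβ and 84.9 TPM in control cells (0.60) and the cystine transporter Slc7a11, which holds a second copy, had 32.5 and 28.8 TPM (0.17). The sixth gene with the element, the amino acid transporter Slc1a4, had 114 TPM with TGFβ and 126 TPM in control cells (-0.14).
Atf3 (chr1:191183411-191183468, minus strand): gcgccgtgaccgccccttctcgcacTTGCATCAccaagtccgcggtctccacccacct
Pycr1 (chr11:120643819-120643876, minus strand): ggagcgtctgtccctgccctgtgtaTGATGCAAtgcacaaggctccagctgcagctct
Nupr1 (chr7:126625548-126625605, minus strand): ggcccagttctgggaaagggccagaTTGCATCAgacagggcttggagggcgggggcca
Chac1 (chr2:119351024-119351081, plus strand): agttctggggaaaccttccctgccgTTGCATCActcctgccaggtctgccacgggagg
Slc7a11 (chr3:50443628-50443685, minus strand): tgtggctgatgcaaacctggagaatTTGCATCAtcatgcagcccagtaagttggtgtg

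The last 4 show AP-1 sites in capitals, shown because the motif occurred at nearly the same share in the higher genes, here Il11 and Sphk1, and the lower genes, here Aldh1a1 and Scel.
Il11 (chr7:4778208-4778264, minus strand): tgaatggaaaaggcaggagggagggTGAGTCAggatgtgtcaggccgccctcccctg
Sphk1 (chr11:116531762-116531818, plus strand): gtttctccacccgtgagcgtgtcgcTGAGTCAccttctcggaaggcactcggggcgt
Aldh1a1 (chr19:20492501-20492557, plus strand): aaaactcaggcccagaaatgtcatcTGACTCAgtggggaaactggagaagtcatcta
Scel (chr14:103513280-103513336, plus strand): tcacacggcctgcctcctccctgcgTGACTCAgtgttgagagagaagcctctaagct

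Markers of several other cell types stood at low levels, while some fibroblast and surface ectoderm markers were expressed. Of 13 macrophage markers 8 had under 1 TPM in both libraries and Adgre1, Cd14, Tyrobp, C1qa and C1qb were listed at 0. The macrophage sum, 45.0 TPM with TGFβ and 93.7 TPM in control cells, was mostly Lyz2 (34.04 and 86.8 TPM). The sum over 12 endothelial markers was 5.25 and 4.28 TPM, that over 16 neuronal and retinal markers 6.18 and 2.41 TPM and that over 11 pigment cell markers 9.40 and 6.03 TPM. The sum over 14 muscle markers was 162 TPM with TGFβ and 38.6 TPM in control cells, of which Tnnt2, cardiac troponin T, held 147 and 29.8 TPM (2.27), while Myod1, Myog and Myf5 were listed at 0. Of 15 markers of cornea and surface ectoderm 9 had under 1 TPM in both; Krt14 had 9.81 and 0.922 TPM (2.49), Klf5 19.3 and 48.4 TPM, Aldh3a1 358 and 702 TPM, and the sum was 394 TPM with TGFβ and 786 TPM in control cells. Of 13 fibroblast markers 7 had under 1 TPM in both libraries, Dcn, Lum, Thy1 and Dpt among them, and 5 were kept. Of these S100a4 made up most of the sum of 2217 TPM with TGFβ and 3048 TPM in control cells, Pdgfrb had 101 and 70.3 TPM (0.52) and Pdgfra had 7.48 and 8.32 TPM (-0.14), beside Col1a1 and Col3a1 above. Vector lay outside the range of the other lines in 4 of these sums. Its endothelial sum was above theirs with TGFβ (2.96 to 5.04 TPM) and in control cells (1.96 to 3.60 TPM), its macrophage sum above theirs in control cells (30.4 to 83.2 TPM) and its fibroblast sum below theirs with TGFβ (2360.1 to 4686 TPM). The part of other cells in the results was not tested.

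Whether Vector responded differently from the rest was tested gene by gene over 10700 genes, with the lone Vector difference assumed to vary like those of the other 6 lines. One gene passed (0.00935%), and 243 had an unadjusted p under 0.05. It was TrnS1, a mitochondrial tRNA-Ser gene. In Vector it was listed at 0 with TGFβ and at 95.3 TPM in control cells, so it was kept only through the control library. In 5 other lines it was listed at 0 in both libraries. In the line labelled WT-CREB it had 66.5 TPM with TGFβ and 125 TPM in control cells. A listed 0 can be a failed estimate. The spread of the other lines therefore does not measure how TrnS1 varies, and the test cannot decide whether its response differed in Vector. Folr1 was next among the lower genes: its Vector difference was 3.15 ± 0.54 below the mean of the others (adjusted p = 1.00 in limma), and its control level was 26.4 TPM in Vector and 0.748 to 5.201 TPM in the others. H2aw, a histone H2A gene, had 2.20 TPM with TGFβ and 16.8 TPM in control cells of Vector (-2.48), against -0.35 to 1.78 in the others. Upk3b, Cntf and Depp1 followed among the lower genes, and Gpbar1, Acsbg1, Frmpd1, Cdh15, Mir7009 and Col1a1 led the higher ones, each with adjusted p = 1.00 in limma. A p-value that misses the threshold does not show that Vector responded like the other lines. On simulated data over 10700 genes this test found 6% of genes that differed 1.5-fold and 70.0% of those that differed 2-fold. It made 9 false calls. That simulation changed many genes in Vector at once, which makes the adjusted threshold easier to pass. In the real data so few genes passed that these shares overstate what the test could find.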

How the data were processed

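RNA was sequenced from 14 cultures, 1 TGFβ and 1 control culture of each of 7 lines. The submitters' processing notes list StringTie 2.0.4, STAR 2.7.6a, edgeR and the build GRCm39 without saying what each did. No source used here gives the strandedness or the annotation release, so reads of overlapping genes cannot be told apart. The deposited tables hold TPM, which sums to 1000000 per library, the authors' FPKM, and coverage per gene, per the file headers. They hold no read counts, so depth was judged from coverage per FPKM and no counting interval is given.

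Rows of a gene were summed and taken as log2(TPM + 1). Genes were kept where the 2 Vector libraries averaged 5 TPM or more. The line pairs its 2 libraries, so the differences of the 6 other lines were fitted with limma 3.58.1 in R 4.3.3 (intensity trend, Benjamini-Hochberg, two-sided, threshold 0.05), and Vector was set against them in a fit of all 7 differences. No repeat cultures are labelled, so p-values measure how the lines differ among themselves. On simulated data over 10470 genes the fit of the 6 lines recovered 98.0% of genes changed 2-fold and made 20 false calls.

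The 15 highest and 15 lowest Vector differences were named, passing over predicted, pseudogene and mitochondrial symbols (14 among the higher, 24 among the lower), with up to 4 members of each list by size and the 6 largest differences from the other lines in each direction; other list members were added after their values were seen. The Vector line, the lists and the members were chosen with earlier results of these data known. Promoter sequences are from RefSeq on GRCm38.p6 and gene coordinates from the deposited tables on GRCm39. Results for some items are not reported here. Alternatives were pseudocounts of 0.1 and 5, other limits, median-of-ratios scaling, quantile normalization, FPKM, TPM without mitochondrial genes, no trend, leaving out lines and no block.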

Additional observations from a re-analysis of the deposited data

Results flagged for a closer look

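In 34 genes examined for a line that stands apart from the other 6 (Dixon's test, which chance flags in about 1 of 20 groups), 4 were flagged. Most of these genes were named for an extreme Vector difference, so that chance rate does not hold for Vector and its values are a description. Folr1 and Depp1 stood apart in Vector, with TGFβ minus control differences of -4.02 and -3.18 in log2(TPM + 1), and so did TrnS1, with -6.59. Each was higher in the Vector control library than in the other control libraries, except that TrnS1 was at 125 TPM in the control library labelled WT-CREB. Clu stood apart in the line labelled S133A/R314A-CREB, with a difference of 7.17, against 3.65 in Vector. TrnS1 was also flagged because its Vector difference passed the test against the 6 other lines (limma, adjusted p = 0.00244). What lies behind these values was not tested.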

How the results depend on the processing

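The counts past 2-fold moved most with the limit on low values. The 217 higher genes became 429 with no limit, 361 with the limit at 1 TPM and 129 at 20 TPM, and the 306 lower genes became 501 with no limit and 172 at 20 TPM. Both counts stayed within 1.5 times under the 2 other pseudocounts, median-of-ratios scaling, quantile normalization, FPKM and TPM without mitochondrial genes. The 30 named genes kept their direction and stayed past 2-fold in all 180 recomputed values, and no list median over 0.1 in size changed sign under the 6 alternatives. The number of Vector genes past 2-fold that also passed in the other lines, 447, was 146 with no replicate block, that is, without the pairing of libraries by line, and between 410 and 448 when each line was left out. The number of genes at which Vector differed from the other lines, 1, was 0 at a pseudocount of 0.1 and with no replicate block, 4 at a pseudocount of 5, 2 with no intensity trend, and between 1 and 2 when each line was left out, with 2 without the line labelled KCREB. The cause was not tested. With 1 library per side, the spread between repeat cultures of Vector was not measured.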
